A study of Mus musculus with 2 samples.

Results

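The genes described here carry the integrated stress response and the unfolded protein response. They are 35 genes chosen by name, read through every probe set annotated to them on a GeneChip, 84 in all of 45037 on the array without its controls. Of the 35 genes, 18 form the ATF4 arm, which holds transcription factors, feedback regulators and amino acid genes. The ER arm holds 14 genes for chaperones, disulphide isomerases, ER-associated degradation and the factor Xbp1. The last 3 genes, Atf6, Ern1 and Eif2ak3, encode the stress sensors of the ER membrane. Biotin-labelled RNA of HT22 cells, a mouse hippocampal nerve cell line, was hybridized to Mouse Genome 430 2.0 arrays. One culture had received J147, a neurotrophic compound, for 1 h, and the vehicle culture had received DMSO for the same time, both after a night in DMEM with fetal calf serum. The labels give the J147 dose as 10 mM, whereas the methods give the same figure in μM. Each condition had a single array, so differences have no replicate check, no test was possible, and treatment and culture cannot be told apart.

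When unfolded proteins build up in the endoplasmic reticulum (ER), PERK (Eif2ak3), IRE1 (Ern1) and ATF6 are activated. PERK phosphorylates the translation factor eIF2, as do other kinases that sense amino acid shortage, heme deficiency or double-stranded RNA. General translation then slows while the mRNA of Atf4 is translated more, and ATF4 drives genes for amino acid supply together with regulators such as CHOP (Ddit3). IRE1 splices the mRNA of Xbp1, and XBP1 and ATF6 drive the genes of chaperones and of ER-associated degradation. In nerve cells these pathways are studied in protein misfolding disease and in memory, where eIF2 phosphorylation restrains the synthesis of new protein.

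ATF4 binds DNA together with C/EBP proteins at a C/EBP-ATF response element, and ATF6 and XBP1 act through ER stress response elements. The letters searched, on both strands of a window from 250 bases before to 50 bases after each start site in the RefSeq set for GRCm38.p6, were TGATGNAA for the core of the first element, CCAAT and CCACG with 9 bases of any kind between them for the ER stress response element, ATTGG and CCACG with 1 base between them for ER stress response element II, TGACGTG for the core of the unfolded protein response element and TGACGTCA for the cAMP response element. The last pair share their first letters and both ER stress elements end in the same letters, but no matches overlapped in the windows of these genes. RefSeq windows were matched for 31 of the 35 genes. The C/EBP-ATF core was found in 5 of 17 matched genes of the ATF4 arm (Nupr1, Chac1, Trib3, Asns and Vldlr) and in 1 of 12 of the ER arm (Herpud1), against 4.51% of all 27025 genes with a window. The ER stress response element was found in 6 of 12 genes of the ER arm (Hspa5, Hsp90b1, Dnajc3, Calr, Pdia6 and Creld2) and in none of 17 of the ATF4 arm, against 0.137% of all genes. Element II was found in Herpud1 and in 0.0444% of all genes, the unfolded protein response core in Hspa5 and in 2.22% of all genes, and the cAMP response element in Ppp1r15a and in 2.03% of all genes. A match is a match of letters and does not show binding.

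**Figure D1:**
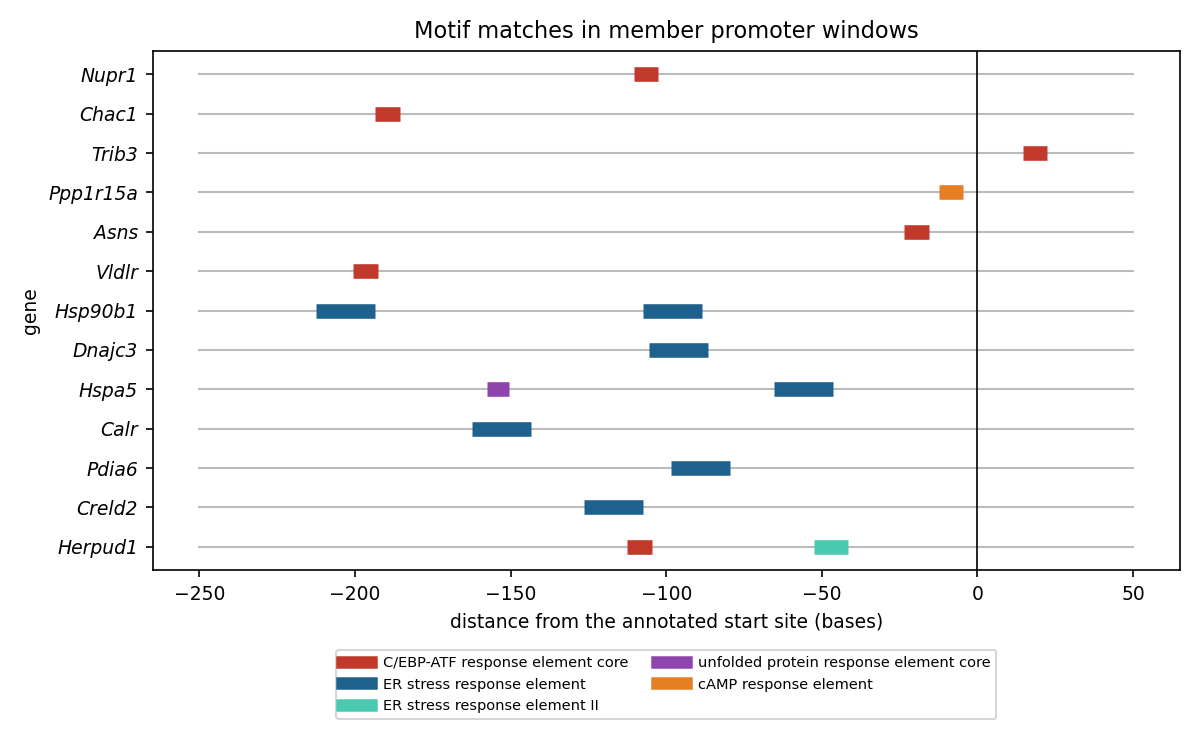
Positions of motif matches (coloured bars) in the promoter windows of the 13 genes with a match, in bases from the annotated start site (horizontal axis), 1 gene per row. The C/EBP-ATF core lies at -193 to -186 in Chac1 and at 15 to 22 in Trib3, and the ER stress response element at -65 to -47 in Hspa5. Vldlr is drawn from the 1 of its start sites with a match.

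The 6 windows below are shown because their genes stand for the range of differences described further on, from Chac1 and Herpud1, lower with J147, through Trib3, Hspa5 and Asns to Ppp1r15a, higher with J147. Each runs 5′ to 3′ on the strand of the gene, and capitals mark the fixed letters of a match to an element above.
Chac1 promoter (GRCm38.p6, chr2:119350992-119351291, plus strand): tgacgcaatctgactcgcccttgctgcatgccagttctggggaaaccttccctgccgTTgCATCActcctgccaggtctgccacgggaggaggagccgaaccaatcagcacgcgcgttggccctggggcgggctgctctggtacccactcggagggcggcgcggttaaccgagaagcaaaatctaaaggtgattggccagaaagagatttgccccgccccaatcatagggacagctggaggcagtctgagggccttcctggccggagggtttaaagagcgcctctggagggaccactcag
Trib3 promoter (GRCm38.p6, chr2:152344011-152344310, minus strand): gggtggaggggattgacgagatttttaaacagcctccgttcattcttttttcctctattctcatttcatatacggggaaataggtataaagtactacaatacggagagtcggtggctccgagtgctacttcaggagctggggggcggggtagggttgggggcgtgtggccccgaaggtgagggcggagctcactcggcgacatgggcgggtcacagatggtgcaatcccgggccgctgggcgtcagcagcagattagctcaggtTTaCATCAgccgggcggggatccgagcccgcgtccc
Asns promoter (GRCm38.p6, chr6:7693160-7693459, minus strand): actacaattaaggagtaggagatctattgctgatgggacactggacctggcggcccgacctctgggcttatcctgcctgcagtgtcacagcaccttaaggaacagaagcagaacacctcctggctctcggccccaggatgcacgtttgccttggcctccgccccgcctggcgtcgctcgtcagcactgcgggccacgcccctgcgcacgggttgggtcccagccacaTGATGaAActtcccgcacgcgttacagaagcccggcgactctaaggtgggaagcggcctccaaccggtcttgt
Ppp1r15a promoter (GRCm38.p6, chr7:45526219-45526518, minus strand): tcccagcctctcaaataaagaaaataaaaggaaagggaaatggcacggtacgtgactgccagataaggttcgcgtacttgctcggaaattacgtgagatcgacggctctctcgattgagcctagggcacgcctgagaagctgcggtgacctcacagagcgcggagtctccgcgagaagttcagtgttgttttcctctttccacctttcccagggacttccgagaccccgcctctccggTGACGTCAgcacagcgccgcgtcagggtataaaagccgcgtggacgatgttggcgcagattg
Herpud1 promoter (GRCm38.p6, chr8:94386179-94386478, plus strand): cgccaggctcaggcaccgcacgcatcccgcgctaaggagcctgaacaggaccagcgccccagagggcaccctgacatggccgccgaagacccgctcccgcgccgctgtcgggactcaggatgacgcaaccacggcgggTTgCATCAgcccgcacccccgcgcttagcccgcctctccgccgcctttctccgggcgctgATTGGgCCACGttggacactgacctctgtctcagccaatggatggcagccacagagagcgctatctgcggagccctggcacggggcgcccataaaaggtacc
Hspa5 promoter (GRCm38.p6, chr2:34771840-34772139, plus strand): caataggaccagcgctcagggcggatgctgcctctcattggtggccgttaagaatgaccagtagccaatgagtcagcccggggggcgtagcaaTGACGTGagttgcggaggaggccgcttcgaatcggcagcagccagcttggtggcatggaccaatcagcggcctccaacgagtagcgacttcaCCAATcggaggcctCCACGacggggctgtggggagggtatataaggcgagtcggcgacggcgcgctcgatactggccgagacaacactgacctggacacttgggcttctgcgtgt

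The arrays held log2 intensities, which were scaled here to a median intensity of 100 on each array. Nearly all values below are such scaled intensities, and differences are log2 of J147 minus log2 of vehicle. The lowest value of the table, 95.1 on the J147 array and 95.4 on the vehicle array, was shared by 46.0% of probe sets with J147 and 46.3% with vehicle, and levels there have no order. A probe set was scored if its mean exceeded 100, and the brightest one stood for its gene, for 10611 scored genes. A deposited value that was identical on both arrays has a difference of -0.0046 after scaling, which was also the median of all scored genes, and their SD was 0.17. The 8 scored housekeeping genes had a median of -0.0017. The 18S rRNA controls had a median difference of -0.62, the labelling spikes of -0.15 and the hybridization spikes of 0.13. The labelling spikes ran from -0.39 to 0.30 and the hybridization spikes from 0.02 to 0.19. The part of these controls in the results was not tested. All 7 fibroblast markers were above the lowest value, whereas 5 of 8 neuron markers, Map2, Snap25, Syt1, Rbfox3 and Stmn2, were at it on both arrays. Of markers of other cells, 2 of 7 for astrocytes, 3 of 7 for microglia, 1 of 4 for oligodendrocytes and 0 of 5 for endothelium were above it. The microglia markers summed to 4469 on the J147 array and 5919 on the vehicle array, with Aif1, Cx3cr1, Itgam and P2ry12 at the lowest value on both and Tmem119 at a difference of -0.54, and their part in the results was not tested.

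All 35 genes were scored, with 79 of their 84 probe sets. With J147, 6 of the 35 were at least 20% lower, namely Sesn2, Ddit4, Chac1, Herpud1, Ddit3 and Eif2ak3, and 1 was at least 25% higher, Ppp1r15a, which is the same fold in either direction. Of all scored genes, 4.04% were as much lower and 2.31% were as much higher. Within the range of levels that these 35 genes cover, which holds 7399 scored genes, the shares were 2.74% and 2%. At 1.5-fold, 3 genes were lower and 1 was higher, against 0.81% and 0.556% of all scored genes. None reached 2-fold in either direction, as 0.0754% and 0.066% of all scored genes did. The genes nearest to the line of 20% lower were Eif2ak3, 1.28-fold lower, on one side of it and Trib3, 1.24-fold lower, on the other.

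**Figure D2:**
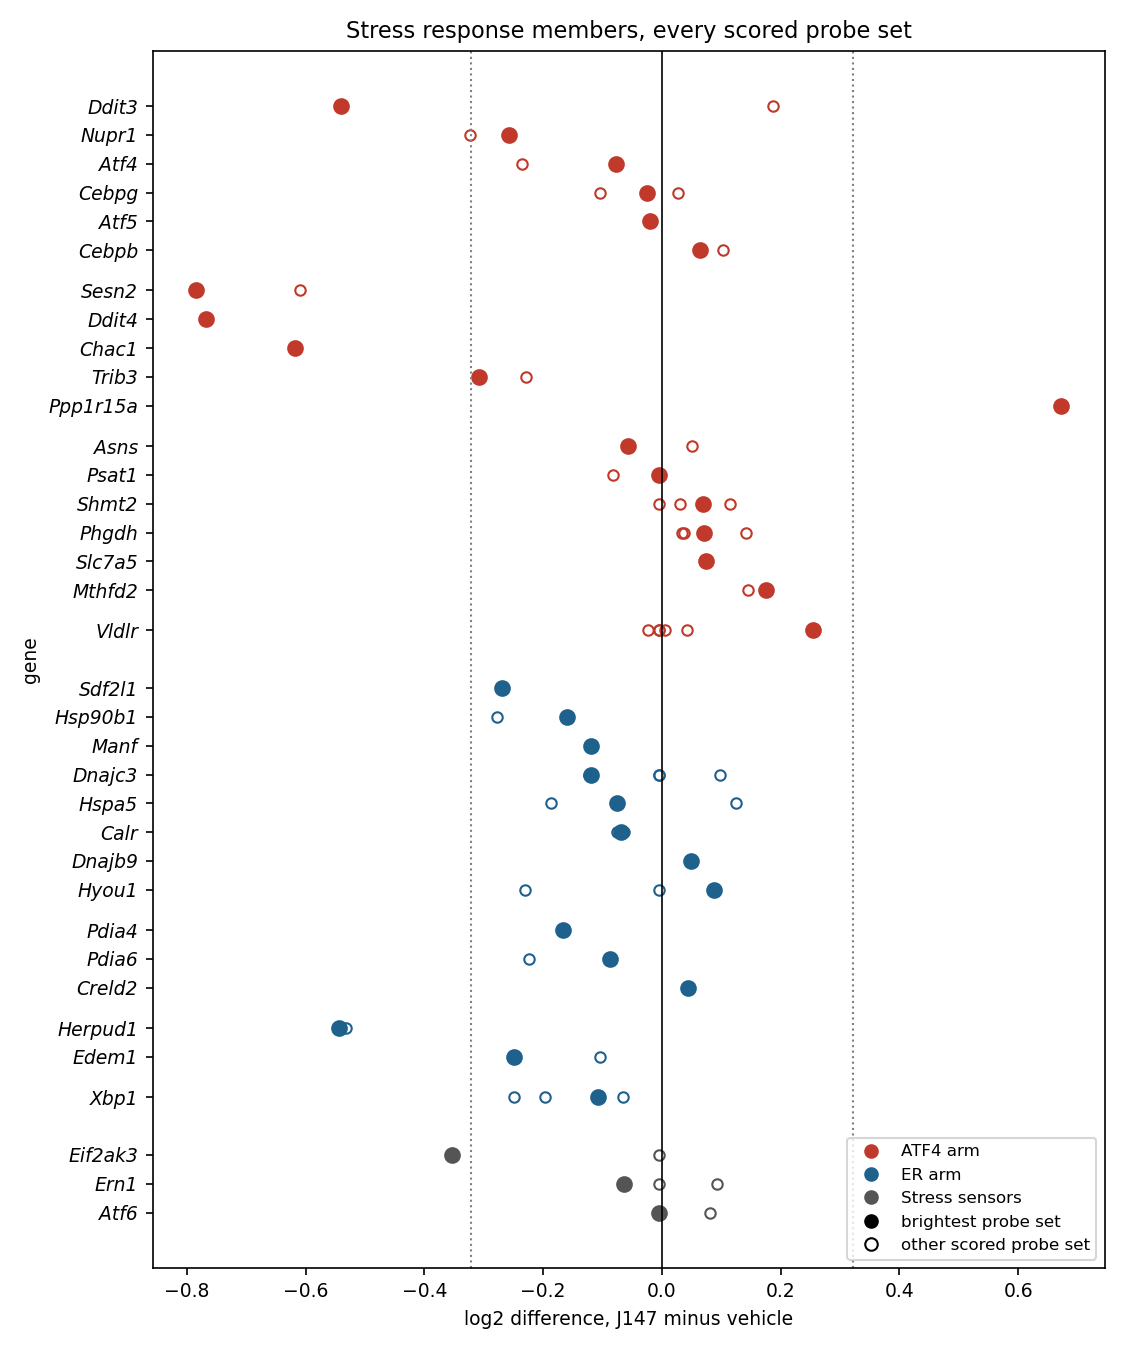
The 35 genes (rows) by their log2 difference (horizontal axis, J147 minus vehicle), with the brightest probe set as a filled point and other scored probe sets as open points. Dotted lines mark 20% lower and 25% higher. The feedback regulators of the ATF4 arm spread most widely, between -0.78 for Sesn2 and 0.67 for Ppp1r15a, and most genes of the ER arm lie a little below 0.

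The feedback and stress regulators held the largest differences of either direction. Sesn2 encodes sestrin 2, which restrains mTORC1 when leucine is short. Its intensity was 3326 on the J147 array and 5729.6 on the vehicle array, 1.72-fold lower with J147, at place 24 from the lowest of the 10611 scored genes. A second Sesn2 probe set pointed the same way, at 1715 for J147 and 2616 for vehicle, a log2 difference of -0.61.

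Ddit4, known as REDD1, is another inhibitor of mTORC1. It had an intensity of 22480.5 on the J147 array and 38268 on the vehicle array, 1.70-fold lower with J147. Chac1 encodes an enzyme that degrades glutathione and is a target of ATF4 and CHOP. It had 12554 on the J147 array and 19258 on the vehicle array, 1.53-fold lower. Both Ddit4 and Chac1 were read from a single probe set. Sesn2 and Ddit4 are also known targets of p53 and, for Ddit4, of hypoxia, so they are shared with those pathways.

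Trib3 encodes a pseudokinase that binds ATF4 and CHOP and damps their activity. Its intensity was 14232 on the J147 array and 17619 on the vehicle array, a log2 difference of -0.31, and its second probe set gave -0.23. The C/EBP-ATF core printed for Chac1 and Trib3 thus stood in windows of genes with lower values, but Asns has the same core and differed by -0.06.

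Ppp1r15a went against this group. It encodes GADD34, the inducible subunit that brings protein phosphatase 1 to phosphorylated eIF2 and so restores translation. Its single probe set had 3767 on the J147 array and 2363 on the vehicle array, 1.59-fold higher with J147, at place 37 from the highest of the scored genes.

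**Figure D3:**
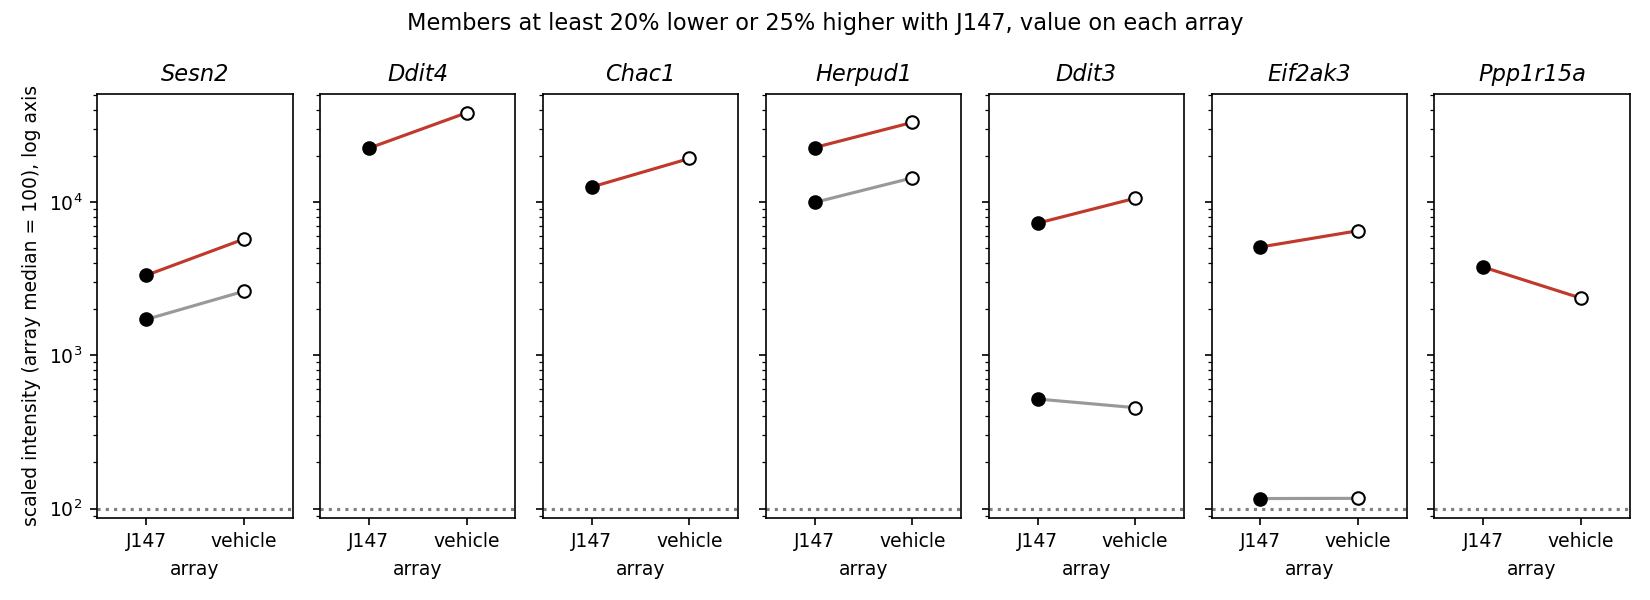
Scaled intensity (vertical log axis, array median 100) on the J147 array (filled circles) and the vehicle array (open circles), 1 array each, for the scored probe sets of the 7 genes at least 20% lower or 25% higher. Red lines join the values of the brightest probe set and grey lines those of others, and the dotted line is at 100. Ppp1r15a is higher on the J147 array and the brightest probe sets of the other genes are lower.

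Among the 6 transcription factors, Ddit3 had the lowest difference by its brightest probe set. Ddit3, which encodes CHOP, a factor of prolonged ER stress and cell death, had 7285 on the J147 array and 10592 on the vehicle array, 1.45-fold lower with J147. Its other probe set, at a far lower intensity, pointed the other way, with 519 for J147 and 456 for vehicle, so the probe sets of Ddit3 disagree. By the mean of both, the log2 difference of Ddit3 was -0.18.

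Atf4 had 159311 on the J147 array and 168044 on the vehicle array, a log2 difference of -0.08, and a second scored probe set gave -0.24. By the mean of both it was at -0.16. The -0.18 of Ddit3 is close to this, but it averages probe sets of opposite sign and unlike intensity. ATF4 is controlled largely at translation, which the arrays do not measure. Nupr1 encodes a small stress-induced chromatin protein, and its probe sets gave log2 differences of -0.26 and -0.32. The remaining factors were close to 0. Cebpb and Cebpg, whose products pair with ATF4, had log2 differences of 0.06 and -0.03, and Atf5, a relative of ATF4 that is also controlled at translation, had -0.02.

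The genes of amino acid and one-carbon supply differed little. None of the 6 was 20% lower or 25% higher, and their log2 differences ran from -0.06 for Asns to 0.17 for Mthfd2, with a median of 0.07. Asns, which makes asparagine, had 233197 on the J147 array and 242569 on the vehicle array, and its second probe set pointed the other way, at 0.05. Mthfd2, a mitochondrial folate enzyme, had 71609 on the J147 array and 63449 on the vehicle array, and its second probe set gave a log2 difference of 0.14.

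Phgdh and Psat1 act in serine synthesis and Shmt2 makes glycine from serine in mitochondria. Their log2 differences were 0.07, -0.0046 and 0.07, and Slc7a5, which encodes a leucine transporter, had 0.08. All 4 scored probe sets of Phgdh lay between 0.03 and 0.14. Vldlr, a lipoprotein receptor gene driven by ATF4 under stress, had a log2 difference of 0.25 by its brightest probe set. Its other 5 scored probe sets lay between -0.02 and 0.04, so the difference of Vldlr rests on 1 probe set.

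Most genes of the ER arm were a little lower with J147, by less than 20%. Of its 14 genes, 11 had a log2 difference below -0.05 and 1 had one above 0.05, against 32.4% and 23.8% of all scored genes. Herpud1 was the single gene of the arm at least 20% lower. It encodes HERP, a membrane protein that assembles the ubiquitin ligase complex of ER-associated degradation. Its brightest probe set had 22705 on the J147 array and 33112 on the vehicle array, and the other had 9954 for J147 and 14386.5 for vehicle, so both gave close to the same log2 difference, -0.54 and -0.53. Its window, printed above, held both a C/EBP-ATF core and an ER stress response element II, and no other of the 31 held element II.

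Edem1, which draws misfolded glycoproteins into degradation, had log2 differences of -0.25 and -0.10 by its 2 probe sets. Xbp1 had 42341 on the J147 array and 45599 on the vehicle array, a log2 difference of -0.11. All 4 of its scored probe sets were lower with J147, the lowest at -0.25. The arrays were not read here for splicing of Xbp1.

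Of the chaperones, Hspa5 encodes BiP, the main HSP70 of the ER, which holds the stress sensors inactive. It had 284703 on the J147 array and 300119 on the vehicle array, a log2 difference of -0.08, while its other scored probe sets gave -0.19 and 0.13. Hsp90b1, which encodes GRP94, the HSP90 of the ER, had 268186 on the J147 array and 299620.0 on the vehicle array. Its 2 probe sets gave log2 differences of -0.16 and -0.28, both lower with J147. Calr, for the lectin chaperone calreticulin, was the most even, with all 3 probe sets between -0.08 and -0.06.

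Sdf2l1, part of a BiP complex, had 10128 on the J147 array and 12212 on the vehicle array, which at -0.27 was the lowest difference among the chaperones. Manf, a secreted protein that binds BiP and has neurotrophic activity, had -0.12, and Dnajc3, a co-chaperone of BiP, had -0.12. Weaker probe sets of Dnajc3 gave 0.10 and -0.12, and its remaining ones were identical on both arrays. Dnajb9, another co-chaperone, had 0.05. Hyou1, a large HSP70 relative, had 0.09 by its brightest probe set and -0.23 by the next, so its direction depends on the probe set. Of the disulphide isomerases and their partners, Pdia4 had -0.17, Pdia6 -0.09 and Creld2 0.04.

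The 3 sensors were different from each other. Eif2ak3, for PERK, had 5093 on the J147 array and 6504 on the vehicle array, 1.28-fold lower with J147. Its only other scored probe set lay near the lowest value, at 116 for J147 and 117 for vehicle. By the mean of both, the log2 difference of Eif2ak3 was -0.18, which is less than 20% lower. The weaker probe set had identical deposited values on both arrays, so a mean with it could only shrink the difference. Ern1 had a log2 difference of -0.06 by its brightest probe set and 0.09 by a weaker one. Atf6 had identical deposited values by its brightest probe set, and its other probe sets gave -0.0046 and 0.08. The mRNA level of a sensor does not show its activity.

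Set against each other, the arms differed more in spread than in position. The median log2 difference was -0.02 for the ATF4 arm and -0.11 for the ER arm, a gap of 0.09, beside -0.0046 for all scored genes. The middle of the ATF4 arm, between its quartiles, was 0.37 wide and that of the ER arm 0.09 wide, and the SDs were 0.37 and 0.16, beside 0.17 for all scored genes. In the ATF4 arm 8 genes lay below -0.05 and 7 above 0.05, and in the ER arm the counts were 11 and 1. Of all scored genes, 32.4% lay below -0.05 and 23.8% above 0.05. At least 20% lower were 4 of 18 genes (22.2%) in the ATF4 arm and 1 of 14 (7.14%) in the ER arm, against 4.04% of all scored genes. The 4 include Ddit3, which was at -0.18 by the mean of its probe sets. Without Sesn2 and Ddit4 the median of the ATF4 arm was -0.01, and its spread was not recomputed without them.

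**Figure D4:**
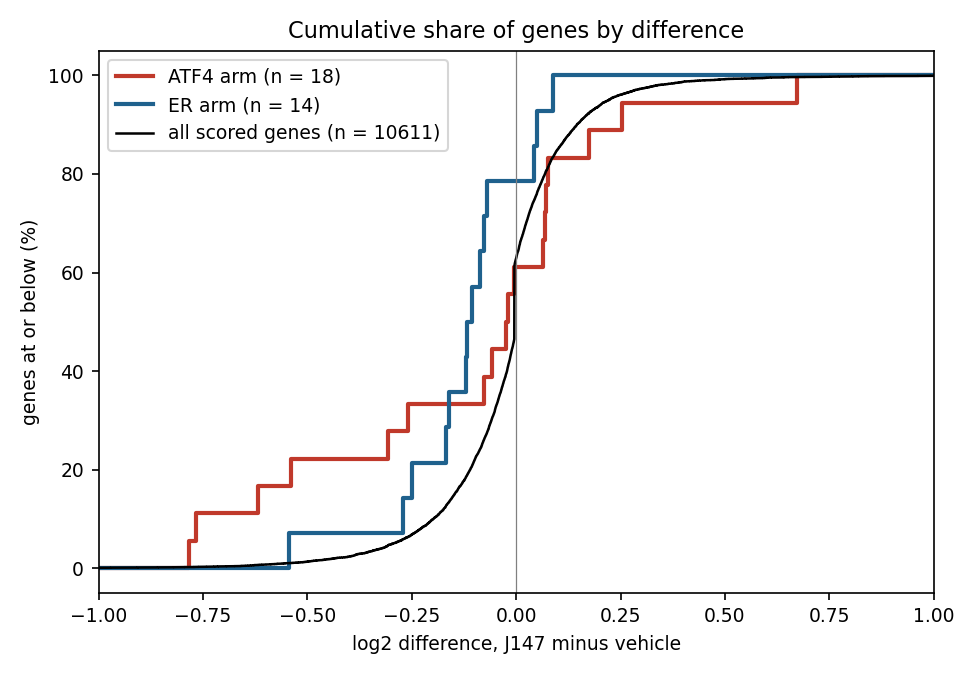
Share of genes (vertical axis, percent) with a log2 difference, J147 minus vehicle, at or below the value on the horizontal axis, for the ATF4 arm (red, 18 genes), the ER arm (blue, 14 genes) and all 10611 scored genes (black). The axis stops at -1 and 1. The ATF4 arm reaches further out on both sides, to -0.78 and 0.67, while the ER arm lies close together to the left of the black line.

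Probe sets of the same gene are the only repeated measurement that an array holds. For 22 of the 35 genes at least 2 scored probe sets differed between the arrays, and in 17 of them (77.3%) the brightest and the next brightest had the same sign, against 64.7% of the 4213 such genes among all scored. The median gap between these probe sets was 0.11 for the 22 genes and 0.10 for all. The median of the ER arm, -0.11, was of about this size. Herpud1, Sdf2l1, Edem1, Pdia4, Hsp90b1, Manf and Dnajc3 differed by more than 0.11, and the other genes of the arm by no more. A difference near this size in 1 gene cannot be told from disagreement between its probe sets. Of the genes at least 20% lower or 25% higher, only Sesn2, Herpud1 and Ddit3 could be compared in this way, and 2 of these 3 (66.7%) had the same sign, against 83.1% of the 254 such genes among all scored. The median gap of those 254 genes was 0.28 and the largest was 1.38, whereas the gap was 0.01 for Herpud1, 0.18 for Sesn2 and 0.73 for Ddit3.

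The genes with a C/EBP-ATF core were also set beside others with the same letters. The 6 of the 35 genes that hold it had a median log2 difference of -0.28. The 215 scored genes outside the 35 that hold it had a median of -0.0046, as all scored genes did. For the ER stress response element, the medians were -0.08 over 6 genes of the 35 and -0.07 over 7 others. The median of the 7 equals the value of Ero1b, a gene of a further list of these pathways. The other genes among the 7 were not looked up, so the 7 cannot be taken as a check from outside the pathways. The 35 genes were listed because they are known targets, so the motif counts among them describe the choice of genes as well.

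Other genes of these pathways, 125 in 11 lists, were near the background as a whole. Of the 109 that were scored, 33.9% had a log2 difference below -0.05 and 27.5% one above 0.05, against 32.4% and 23.8% of all scored genes, 2.75% were at least 20% lower and 0.917% at least 25% higher, against 4.04% and 2.31%, and their median was -0.0061. Single lists varied around this, and differences between lists were not tested. Of 13 aminoacyl-tRNA synthetase genes, whose products load tRNAs and many of which ATF4 drives, 9 had a log2 difference above 0.05 and 1 below -0.05, with a median of 0.07. The largest were 0.14 for Cars and 0.11 for Tars. Of 8 scored amino acid transporter genes 6 were above 0.05 and none was below -0.05, with a median of 0.09. Slc1a5, a glutamine carrier, had 13721 on the J147 array and 11751 on the vehicle array, and Slc7a1, a carrier of arginine and lysine, had 58592 for J147 and 51117 for vehicle. Of 10 further amino acid and one-carbon enzymes 3 (30%) were above 0.05 and 2 (20%) below -0.05, near the shares of all scored genes, with a median of 0.02, Cth, which makes cysteine, at 0.24 and Got1, an aspartate aminotransferase, at 0.23. None of the scored genes of these 3 lists was 20% lower or 25% higher.

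Of 15 other ER folding and oxidation enzymes 10 (66.7%) lay below -0.05 and none above 0.05, against 32.4% and 23.8% of all scored genes. Their median was -0.07, and none was 20% lower or 25% higher. Uggt1, which marks misfolded glycoproteins for another round of folding, had 19805 on the J147 array and 23797 on the vehicle array, and its 2 probe sets both gave a log2 difference of -0.26. Hspa13, an HSP70 relative, had -0.21 by its brightest probe set and 0.13 by the next.

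Of 12 further targets of ATF4 and CHOP 6 (50%) were below -0.05 and 3 (25%) above 0.05, with a median of -0.04. The shares of all scored genes were 32.4% and 23.8%, and these lists are small. Klhl24, an adaptor of a ubiquitin ligase, had 1715 on the J147 array and 2399 on the vehicle array, 1.40-fold lower with J147. Its other probe set was lower too, at -0.85, but at a far lower intensity. Stc2, a secreted stanniocalcin, had 826 on the J147 array and 625 on the vehicle array, a log2 difference of 0.40. Weaker probe sets of Stc2 gave 0.19 and -0.0046. Among 9 scored transducers of the CREB3 and S1P/S2P group, 1 (11.1%) was at least 20% lower, against 4.04% of all scored genes. This was Creb3l2, a factor of the ER membrane that is cut in the same way as ATF6, with 2144 on the J147 array and 2943 on the vehicle array, and its second probe set gave -0.23. Creb3l1 of the same family had -0.20 at a low intensity. Of 4 scored mRNAs that active IRE1 is known to cut, 3 (75%) were below -0.05, against 32.4% of all scored genes. Pdgfrb was at -0.48 and Col6a1 at -0.24. A weaker probe set of Pdgfrb was identical on both arrays.

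**Figure D5:**
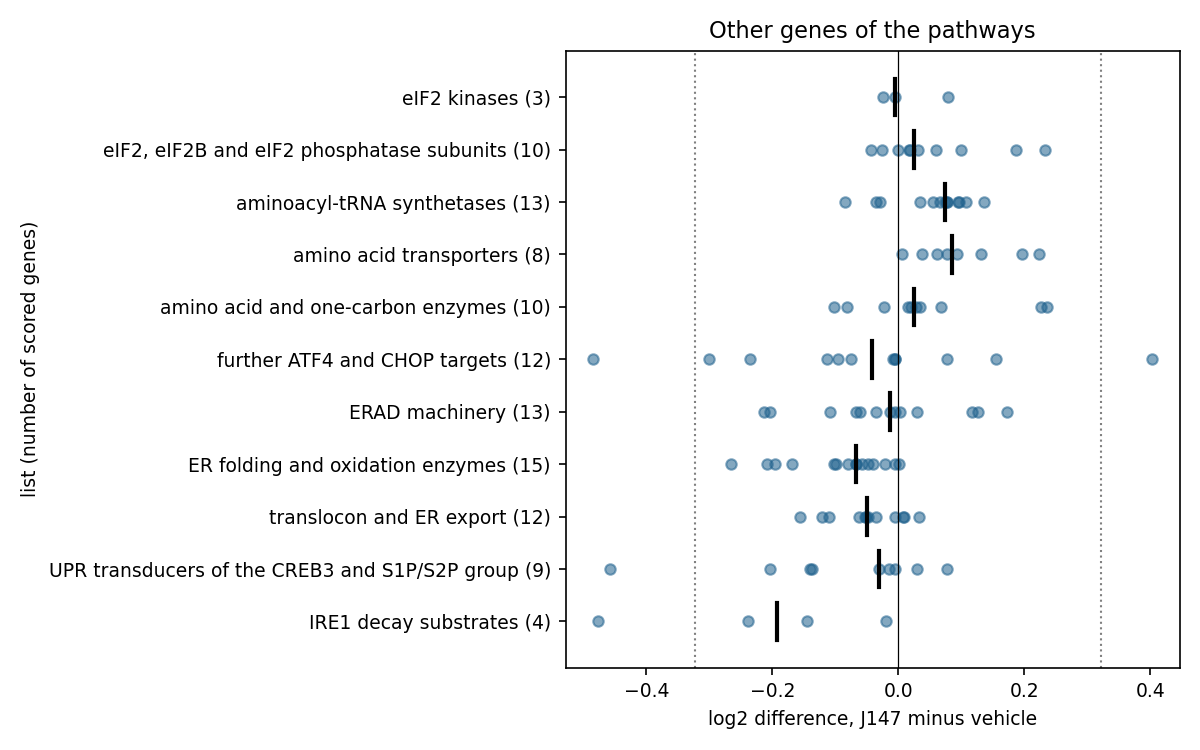
Scored genes (points) of 11 further lists of the pathways (rows, with the number of genes) by log2 difference (horizontal axis, J147 minus vehicle), with the median as a black bar and dotted lines at 20% lower and 25% higher. Aminoacyl-tRNA synthetases and amino acid transporters have medians of 0.07 and 0.09, ER folding and oxidation enzymes one of -0.07.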

How the data were processed

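Gene expression in HT22 cells was compared between 1 J147 array and 1 vehicle array, grouped by their labels. The log2 intensities deposited by the authors are GCRMA summaries of probe sets, made in R. The processing notes of the submitters also name Affymetrix Expression Console 1.0, and the GCRMA version and a genome build are not given in the sources used here. As in the study's methods, intensities were scaled to a median of 100 (over probe sets that are no controls), and those with a mean above 100 were scored. The platform annotation gives 1 gene for 34945 of 45037 probe sets, which were used with symbols updated to RefSeq of GRCm38.p6, while 932 with several and 9160 with none were left out. The members and lists were chosen with earlier results of these data known. All 35 members are named, and so are, from each further list, genes 1.5-fold different or, failing that, the 2 with the largest difference. The range of levels used as a second background was chosen after seeing the data. With 1 array per group no test was run, and the number of arrays limits the precision. Alternatives were other scalings, subtraction of a lowess curve (span 0.3), addition of 50 to each intensity, stricter or no filters, other summaries of a gene, other fold thresholds and other members. Scripts ran under Python 3.11.15 with pandas 2.3.3, numpy 2.4.6, statsmodels 0.14.6 and matplotlib 3.10.9 and were tested on simulated data.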

Additional observations from a re-analysis of the deposited data

How the results depend on the processing

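For the arm medians, their gap and the counts of members, 51 values were recomputed under other settings, and 48 of them stayed within 0.05 log2 units for medians and 1.5 times for counts. The other 3 follow from a stricter threshold: 3 members were lower at 1.5-fold, and 0 were lower and 0 higher at 2-fold. Of 305 values of single members, 298 stayed within 0.1 log2 units. Both tallies include settings that could hardly act, so they overstate stability. The unscaled values shift every difference by the same small amount, well inside the tolerances. The members are too bright for the other filters or the added constant to matter. Subtraction of the lowess curve could act and moved no value beyond the tolerances. All single members that moved did so under settings that change the probe sets read. With the probe sets ending in _x_at, _s_at and _a_at left out, Vldlr turned to -0.0046, Hyou1 to -0.23 and Asns to 0.05, each because another probe set is then read. By the mean of the scored probe sets, Ddit3 was at -0.18, Eif2ak3 at -0.18, Vldlr at 0.04 and Hyou1 at -0.05. The value of Eif2ak3 includes a probe set near the floor that was identical on both arrays. By the same mean, 4 members were at least 20% lower, and the median of the CREB3 and S1P/S2P group was -0.12 instead of -0.03. No paired analysis was possible because each condition has 1 array. The floor of the intensities hides any difference in probe sets that lie at it.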

Other observations

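The eIF2 machinery itself differed little. The 10 scored genes encode subunits of eIF2, of its exchange factor eIF2B and of its phosphatases, and had a median of 0.02. None had a log2 difference below -0.05 and 4 (40%) had one above 0.05, against 32.4% and 23.8% of all scored genes. The largest were Eif2b3 with 0.23 and Eif2b2 with 0.19, both subunits of eIF2B. Of the other eIF2 kinases, Eif2ak2, for PKR, had 0.08 and Eif2ak1, for HRI, had -0.02 by the brightest probe set. Other scored probe sets gave 0.18 and 0.04 for Eif2ak2 and 0.03 and -0.0046 for Eif2ak1.

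Of 13 scored genes of the ER-associated degradation machinery, 5 (38.5%) were below -0.05 and 3 (23.1%) above 0.05, near the 32.4% and 23.8% of all scored genes, with a median of -0.01, and none was 20% lower or 25% higher. Syvn1, the ubiquitin ligase that HERP binds, had -0.21 by its brightest probe set and 0.02 by the other, and Edem3, a relative of Edem1, had -0.20 and 0.13. Of 12 genes of the translocon and of ER export, 6 were below -0.05 and none above 0.05, with a median of -0.05. Sec23b was at -0.16 and Sec62 at -0.12 by its brightest probe set. Other scored probe sets of Sec62 gave 0.02, 0.25 and -0.0046, so its direction depends on the probe set.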
